A study of Homo sapiens with 12 samples.

Results

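Zinc and manganese transporters of the SLC30 and SLC39 families were followed in HepG2, an established human liver cancer cell line, across 4 culture media. The set was named by gene symbol: SLC30A1, SLC30A5, SLC30A7, SLC30A10, SLC39A6, SLC39A7, SLC39A10 and SLC39A14. Of these 8 genes, 7 had a row among the 10940 genes of the count table and all 7 were among the 10459 genes tested. SLC39A7 was not analysed here. The cells, labelled wild type, were seeded in EMEM (Eagle's minimum essential medium, in which the line was also kept). They were moved 24 h later to EMEM, to Plasmax (a medium modelled on human plasma), to Plasmax made without trace elements (Plasmax-TE), or to that medium with iron restored (Plasmax-TE+Fe). All 4 media carried 10% heat-inactivated fetal bovine serum, the medium was renewed after 48 h, and RNA was taken at 96 h. The 12 libraries, 3 per medium, were made with a kit that reads the 3′ end of polyadenylated transcripts.

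Cells control zinc through transporters that work in opposite directions. SLC30 proteins (also called ZnT) carry zinc out of the cytosol, either across the plasma membrane or into organelles, and SLC39 proteins (also called ZIP) carry it into the cytosol. Some members accept other metals: SLC39A14 (ZIP14) takes manganese, zinc and iron not bound to transferrin into hepatocytes, and SLC30A10 (ZnT10) exports manganese. Free zinc is sensed by the transcription factor MTF1, which binds metal response elements and switches on the metallothioneins, small zinc-storing proteins, and SLC30A1.

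Total counts per library ran from 1562125 to 2384090. Levels are CPM (counts brought to a common library total) after scaling by TMM factors, which correct for differences in RNA composition between libraries. Each read came from a transcript's 3′ end and levels are not scaled by length, so they are compared between media and not between genes. The liver identity of the cells was checked with 7 hepatocyte markers, all of them detected, the lowest value being 9.75 CPM for SERPINA1. Of 6 markers of fibroblasts, leukocytes and endothelium, 2 had a row (CD68 and COL1A1), neither with more than 16 counts in a library. From EMEM to Plasmax 5 of the 7 hepatocyte markers fell and 1 rose, beside 11.5% and 9.90% of all genes (adjusted p under 0.05, edgeR). What part the change in these markers has in the transporters' differences was not tested. Replicate 1 of Plasmax-TE and replicate 2 of Plasmax-TE+Fe stood apart from the other 10 libraries on the second principal component, with scores of -35.5 and -32.0 against -8.11 or higher. Their names carry the consecutive library numbers 87 and 88, within the same run of 4 numbers. After subtracting each medium's mean they correlated at r = 0.53, the highest of all pairs from different media. Each of these 2 libraries was set against its medium's remaining libraries, and the 2 differences were averaged. In this mean 6 of the 7 transporters were lower, by 0.12 to 0.58 on the log2 scale, and SLC39A10 was higher by 0.41. The median of all genes was -0.00066, and the share of all genes that were lower was not taken. SLC30A5 was not lower in both: Plasmax-TE replicate 1 had 18.4 CPM, between the 14.8 and 20.7 CPM of replicates 2 and 3. Whether the 3 libraries per medium stem from separate cultures is not stated, and p-values reflect variation among libraries, possibly technical.

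RefSeq promoter windows on GRCh38.p14, from 250 bases before to 50 bases after a gene's start, were at hand for 7 of the 8 transporters and not for SLC39A14. They were searched on both strands for the core of the metal response element, in the 2 spellings TGCGCNC and TGCACNC. SLC30A1 held 2 cores, one 49 bases before the start and one after it, SLC39A6 held 1, the second of the windows of SLC39A10 held 1, and the windows of SLC30A5, SLC30A7, SLC30A10 and SLC39A7 held none. Of 35116 windows of this length in the reference, 29.6% held at least 1 core and 8.60% at least 2. The metallothionein promoters of MT2A and MT1X held 8 and 4, and 0.601% of windows held 4 or more. The 250 bases before the start are shown for SLC30A1, the transporter known as an MTF1 target, for SLC39A6, whose level differed among the media, and for MT2A as a metal-responsive promoter, with the cores in capitals:
SLC30A1 (chr1:211579162-211579411, minus strand): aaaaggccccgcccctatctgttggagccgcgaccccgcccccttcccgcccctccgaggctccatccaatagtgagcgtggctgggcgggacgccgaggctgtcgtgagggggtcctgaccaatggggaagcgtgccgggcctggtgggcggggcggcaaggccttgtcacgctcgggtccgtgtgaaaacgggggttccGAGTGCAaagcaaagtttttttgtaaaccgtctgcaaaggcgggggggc
SLC39A6 (chr18:36129341-36129590, minus strand): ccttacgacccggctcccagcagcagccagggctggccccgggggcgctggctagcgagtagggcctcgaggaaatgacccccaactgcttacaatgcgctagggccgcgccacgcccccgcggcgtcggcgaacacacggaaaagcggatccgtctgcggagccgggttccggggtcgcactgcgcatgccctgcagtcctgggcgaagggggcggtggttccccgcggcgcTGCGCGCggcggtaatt
MT2A (chr16:56608334-56608583, plus strand): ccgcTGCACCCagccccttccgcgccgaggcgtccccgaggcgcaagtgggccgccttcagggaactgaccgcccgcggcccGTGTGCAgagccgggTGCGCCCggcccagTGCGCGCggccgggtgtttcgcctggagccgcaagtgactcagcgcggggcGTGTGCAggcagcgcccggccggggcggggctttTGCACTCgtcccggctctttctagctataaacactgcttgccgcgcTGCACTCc
In SLC30A1 the core lies on the opposite strand and reads GAGTGCA. MT2A shows 7 cores in the stretch printed, spread from 246 to 8 bases before its start, and those reading GTGTGCA lie on the opposite strand as well. A match is a description of the letters and not evidence of a bound site.

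Of the 7 transporters tested 3 differed among the 4 media, SLC39A14, SLC39A6 and SLC39A10. The share of all genes that differed was 18.0%. The adjusted p was 0.00036 for SLC39A14, 0.0083 for SLC39A6 and 0.014 for SLC39A10 by edgeR (quasi-likelihood test of the 4 media, Benjamini-Hochberg over all genes). SLC30A10 had 0.058, SLC30A5 0.16, SLC30A7 0.17 and SLC30A1 0.27 by the same test. The call of SLC39A10 was lost without EMEM replicate 3 (adjusted p = 0.075, edgeR). SLC30A10 was called in 7 of 21 alternatives, among them DESeq2 (adjusted p = 0.045) and the fit without EMEM replicate 2 (adjusted p = 0.010, edgeR).

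**Figure D1:**
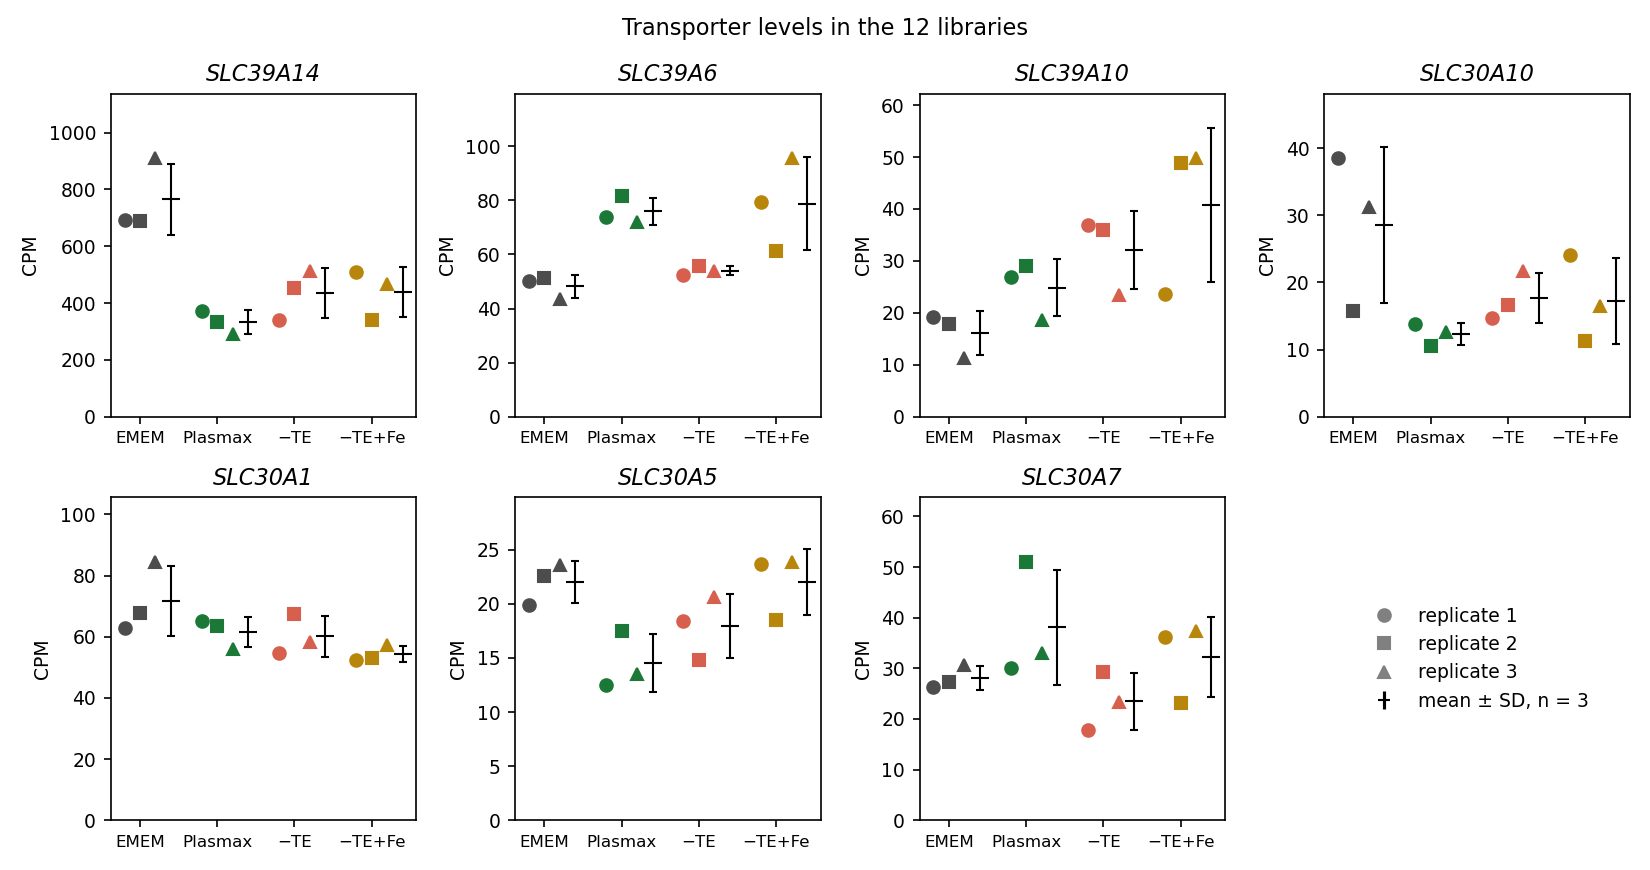
Level of each measured transporter (CPM, linear axis from 0) in the 12 libraries, by medium, with points for single libraries and bars for the mean ± SD of 3. SLC39A14 was highest in EMEM, at 689 CPM or more against 514 CPM or less in every other library, and SLC39A6 was lowest in EMEM and Plasmax-TE.

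SLC39A14 (ENSG00000104635), which brings manganese, zinc and free iron into the hepatocyte, was higher in EMEM than in any of the Plasmax-based media. Its level was 694, 689 and 909.8 CPM in the 3 EMEM libraries and 373, 334 and 290.0 CPM in those of Plasmax. It was 339, 454 and 514 CPM in Plasmax-TE and 507, 342 and 467 CPM in Plasmax-TE+Fe. All 3 EMEM libraries lay above all 9 others, while the ranges of the Plasmax, Plasmax-TE and Plasmax-TE+Fe libraries overlapped. The means were 764 ± 126, 332 ± 41.6, 436 ± 88.8 and 439 ± 86.4 CPM (SD, n = 3 each) in the order EMEM, Plasmax, Plasmax-TE and Plasmax-TE+Fe.

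Against EMEM, SLC39A14 fell by 1.20 ± 0.18 (log2 fold change ± SE; 2.30-fold lower) in Plasmax, by 0.81 ± 0.18 in Plasmax-TE and by 0.80 ± 0.18 in Plasmax-TE+Fe. These 3 comparisons share the EMEM libraries and are not independent of one another. The adjusted p was 8.0e-05, 0.010 and 0.0065 by edgeR's quasi-likelihood test after Benjamini-Hochberg correction. Without EMEM replicate 3, the highest library, the fall in Plasmax remained past the threshold, whereas those in Plasmax-TE (adjusted p = 0.081) and Plasmax-TE+Fe (adjusted p = 0.054) were lost in edgeR's test. Among the Plasmax-based media the order of means was Plasmax, Plasmax-TE and Plasmax-TE+Fe, and no step in it passed. The difference was 0.39 ± 0.18 for Plasmax-TE against Plasmax and 0.01 ± 0.18 for Plasmax-TE+Fe against Plasmax-TE, the latter with a 95% interval, not adjusted for the number of genes, from -0.36 to 0.38. With both libraries that stood apart left out, a choice made after seeing the data, SLC39A14 was 0.54 higher in Plasmax-TE than in Plasmax (adjusted p = 0.018, edgeR).

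SLC39A6 (ENSG00000141424), an importer of the plasma membrane also known as ZIP6 or LIV-1, had higher means in Plasmax and Plasmax-TE+Fe than in EMEM and Plasmax-TE. Of these differences only those from EMEM passed edgeR's test. SLC39A6 stood at 50.1, 51.1 and 43.5 CPM in EMEM and at 74.0, 81.6 and 72.2 CPM in Plasmax. Without trace elements it stood at 52.5, 55.7 and 53.8 CPM, and with iron restored at 79.6, 61.2 and 95.6 CPM. Every library of Plasmax and Plasmax-TE+Fe lay above every library of the other media, the nearest being Plasmax-TE+Fe replicate 2. The Plasmax-TE libraries lay closest together and those of Plasmax-TE+Fe were the most scattered.

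In Plasmax SLC39A6 rose by 0.66 ± 0.17 over EMEM (1.58-fold), and in Plasmax-TE+Fe it rose by 0.71 ± 0.17 over EMEM (1.64-fold). The adjusted p was 0.0095 and 0.010 by the same test in edgeR. Both calls were lost without EMEM replicate 3 (adjusted p = 0.056 and 0.065), and the second also without Plasmax-TE+Fe replicate 3 (adjusted p = 0.069, edgeR). The difference was -0.49 ± 0.17 on removal of the trace elements and 0.54 ± 0.17 on return of iron. Neither passed over all genes (adjusted p = 0.068 and 0.23 in edgeR's test). The first passed with a block for the 3 runs of consecutive library numbers, each holding 1 library per medium (adjusted p = 0.031), and both passed without Plasmax-TE+Fe replicate 2 (adjusted p = 0.033 and 0.030). Plasmax-TE+Fe and Plasmax, the neighbours at the top of the order, differed by 0.05 ± 0.16, with a 95% interval from -0.29 to 0.40. At the bottom, Plasmax-TE and EMEM differed by 0.17 ± 0.17 (adjusted p = 0.66, edgeR).

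SLC39A10 (ENSG00000196950), a plasma membrane zinc importer closely related to SLC39A6 and known to pair with it, had its lowest mean in EMEM and its highest in Plasmax-TE+Fe. Its 3 values were 19.3, 17.9 and 11.3 CPM in EMEM and 27.0, 29.0 and 18.6 CPM in Plasmax. They were 36.8, 36.0 and 23.4 CPM in Plasmax-TE and 23.7, 48.8 and 49.8 CPM in Plasmax-TE+Fe. EMEM did not overlap with Plasmax-TE or Plasmax-TE+Fe, whereas neighbours in the order EMEM, Plasmax, Plasmax-TE, Plasmax-TE+Fe overlapped in each case. Plasmax-TE+Fe replicate 1 lay near the Plasmax libraries, far below the other 2 of its medium.

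The rise of SLC39A10 from EMEM to Plasmax-TE+Fe was 1.33 ± 0.29 (2.52-fold) and passed at adjusted p = 0.0055 in edgeR's test, and it passed in all 22 alternatives. The difference between Plasmax-TE and EMEM was 1.00 ± 0.30 and missed the threshold (adjusted p = 0.059). It passed in 6 of 22 alternatives, including DESeq2 (adjusted p = 0.042) and the block for library numbers (adjusted p = 0.0027). No step between neighbouring media passed: 0.62 ± 0.31 from EMEM to Plasmax, 0.38 ± 0.28 from Plasmax to Plasmax-TE and 0.33 ± 0.27 from there to Plasmax-TE+Fe. With the block the first of these passed (adjusted p = 0.024, edgeR).

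SLC30A10 (ENSG00000196660), the manganese exporter, was lower in Plasmax than in EMEM. With 21 to 66 counts per library it was among the least counted members. It stood at 38.5, 15.8 and 31.2 CPM in EMEM and at 13.8, 10.5 and 12.6 CPM in Plasmax. In Plasmax-TE it stood at 14.6, 16.6 and 21.7 CPM, and in Plasmax-TE+Fe at 24.1, 11.3 and 16.4 CPM. The lowest EMEM library, replicate 2, still lay above all 3 Plasmax libraries, but it fell within the range of both other media.

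The fall of SLC30A10 from EMEM to Plasmax was 1.19 ± 0.32 on the log2 scale (2.28-fold lower; adjusted p = 0.012, edgeR). Leaving out EMEM replicate 1, EMEM replicate 3 or Plasmax replicate 2 ended the call, at adjusted p = 0.074, 0.052 and 0.068. Differences from EMEM were -0.66 ± 0.30 for Plasmax-TE and -0.67 ± 0.30 for Plasmax-TE+Fe, with adjusted p = 0.24 and 0.18. Without EMEM replicate 2 the second reached -0.99 and passed (adjusted p = 0.042, edgeR). Removal of the trace elements gave 0.53 ± 0.34 and return of iron -0.01 ± 0.32, the latter with a 95% interval from -0.68 to 0.65.

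SLC30A10 and SLC39A14, the manganese exporter and importer, had similar profiles, with the highest mean of each in EMEM and the lowest in Plasmax. Over the 12 libraries Pearson's r of their log2 CPM was 0.82, the highest among the 21 pairs of members. After subtracting each medium's mean r was 0.60, below the pairs SLC30A7 and SLC39A6 (0.63) and SLC30A1 and SLC39A14 (0.62). Both genes were also lower in the libraries that stood apart, SLC30A10 by a mean of 0.56 and SLC39A14 by a mean of 0.51 on the log2 scale. The part of this in the correlation was not tested. These values describe libraries that share medium, preparation and depth.

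**Figure D2:**
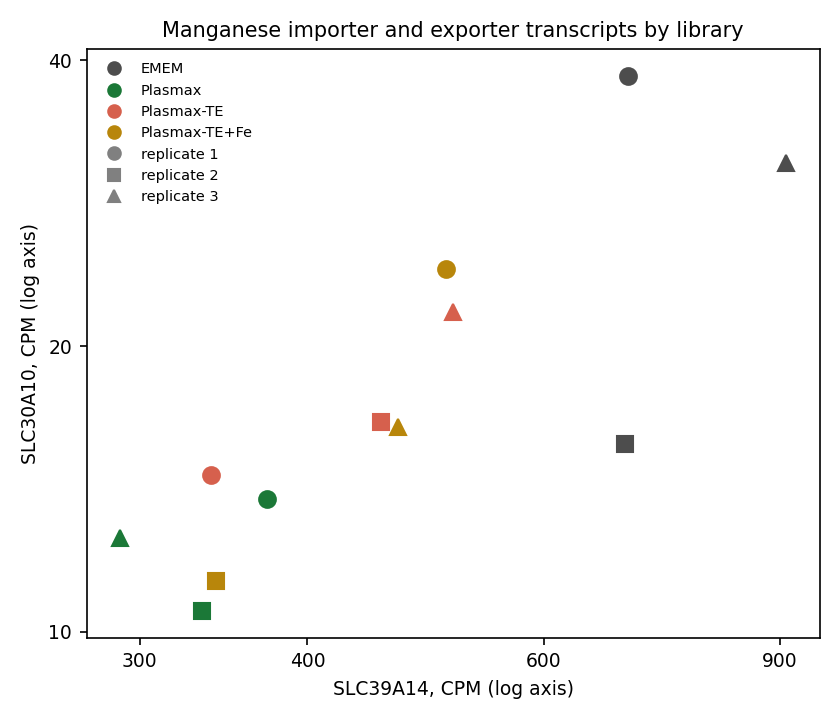
SLC30A10 against SLC39A14 in each of the 12 libraries (CPM, both axes logarithmic), coloured by medium and with a symbol for the replicate number. The Plasmax libraries lie at the lower left and EMEM replicates 1 and 3 at the upper right, while EMEM replicate 2 combines 689 CPM of SLC39A14 with 15.8 CPM of SLC30A10.

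SLC30A1 (ENSG00000170385), the zinc exporter of the plasma membrane and the member most closely tied to MTF1, varied least. Its values were 62.9, 67.7 and 84.6 CPM in EMEM, 65.2, 63.6 and 55.9 CPM in Plasmax, 54.7, 67.4 and 58.2 CPM in Plasmax-TE and 52.5, 52.9 and 57.3 CPM in Plasmax-TE+Fe. The highest library was 1.61 times the lowest, the smallest such ratio among the 7 members, and ranges overlapped except between EMEM and Plasmax-TE+Fe. Means ranked in the order EMEM (71.7 ± 11.4 CPM), Plasmax (61.6 ± 5.00), Plasmax-TE (60.1 ± 6.58) and Plasmax-TE+Fe (54.2 ± 2.64; SD, n = 3 each), with no pair past the threshold. The difference at the ends of this order was -0.41 ± 0.16 (adjusted p = 0.12, edgeR). For Plasmax-TE against Plasmax it was -0.03 ± 0.16, with a 95% interval from -0.37 to 0.31.

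SLC30A5 (ENSG00000145740) and SLC30A7 (ENSG00000162695) move zinc into the early secretory pathway, where it is built into secreted and membrane enzymes. SLC30A5 stood at 19.9, 22.6 and 23.6 CPM in EMEM, 12.5, 17.5 and 13.5 CPM in Plasmax, 18.4, 14.8 and 20.7 CPM in Plasmax-TE and 23.7, 18.5 and 23.9 CPM in Plasmax-TE+Fe. The Plasmax libraries lay below those of EMEM and of Plasmax-TE+Fe without overlap. The corresponding differences were -0.60 ± 0.23 for Plasmax against EMEM and 0.59 ± 0.23 for Plasmax-TE+Fe against Plasmax. Neither passed (adjusted p = 0.069 and 0.24, edgeR).

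SLC30A7 stood at 26.3, 27.3 and 30.7 CPM in EMEM, 30.1, 51.1 and 33.1 CPM in Plasmax, 17.9, 29.2 and 23.4 CPM in Plasmax-TE and 36.1, 23.1 and 37.3 CPM in Plasmax-TE+Fe. Plasmax replicate 2 was the highest library, and the Plasmax and Plasmax-TE libraries did not overlap. Without trace elements the difference was -0.69 ± 0.24 (adjusted p = 0.073, edgeR). It passed with the block for library numbers (adjusted p = 0.020) and without Plasmax-TE+Fe replicate 2 (adjusted p = 0.039), and it was -0.53 (adjusted p = 0.15) with both libraries that stood apart left out.

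Set side by side, the change from EMEM to Plasmax touched 3 of the 7 transporters. SLC39A14 and SLC30A10 fell and SLC39A6 rose, against 21.4% of all genes called (9.90% higher and 11.5% lower). Of the genes called 46.4% were higher, and 54.8% were so when libraries were scaled by size alone. The members' median log2 fold change was -0.23, and that of all genes was -0.01. The libraries of the 2 media did not overlap for 4 of the 7, beside 39.6% of all genes. In Plasmax-TE against EMEM 1 of 7 was called (SLC39A14, lower), beside 4.81% of all genes (1.62% higher and 3.19% lower), and 3 of 7 did not overlap, beside 24.9%. In Plasmax-TE+Fe against EMEM 3 of 7 were called (SLC39A14 lower, SLC39A6 and SLC39A10 higher), beside 9.65% (3.67% higher and 5.98% lower), and 4 of 7 did not overlap, beside 28.9%. Here scaling by size alone moved the share of higher genes among those called from 38.1% to 49.5%.

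**Figure D3:**
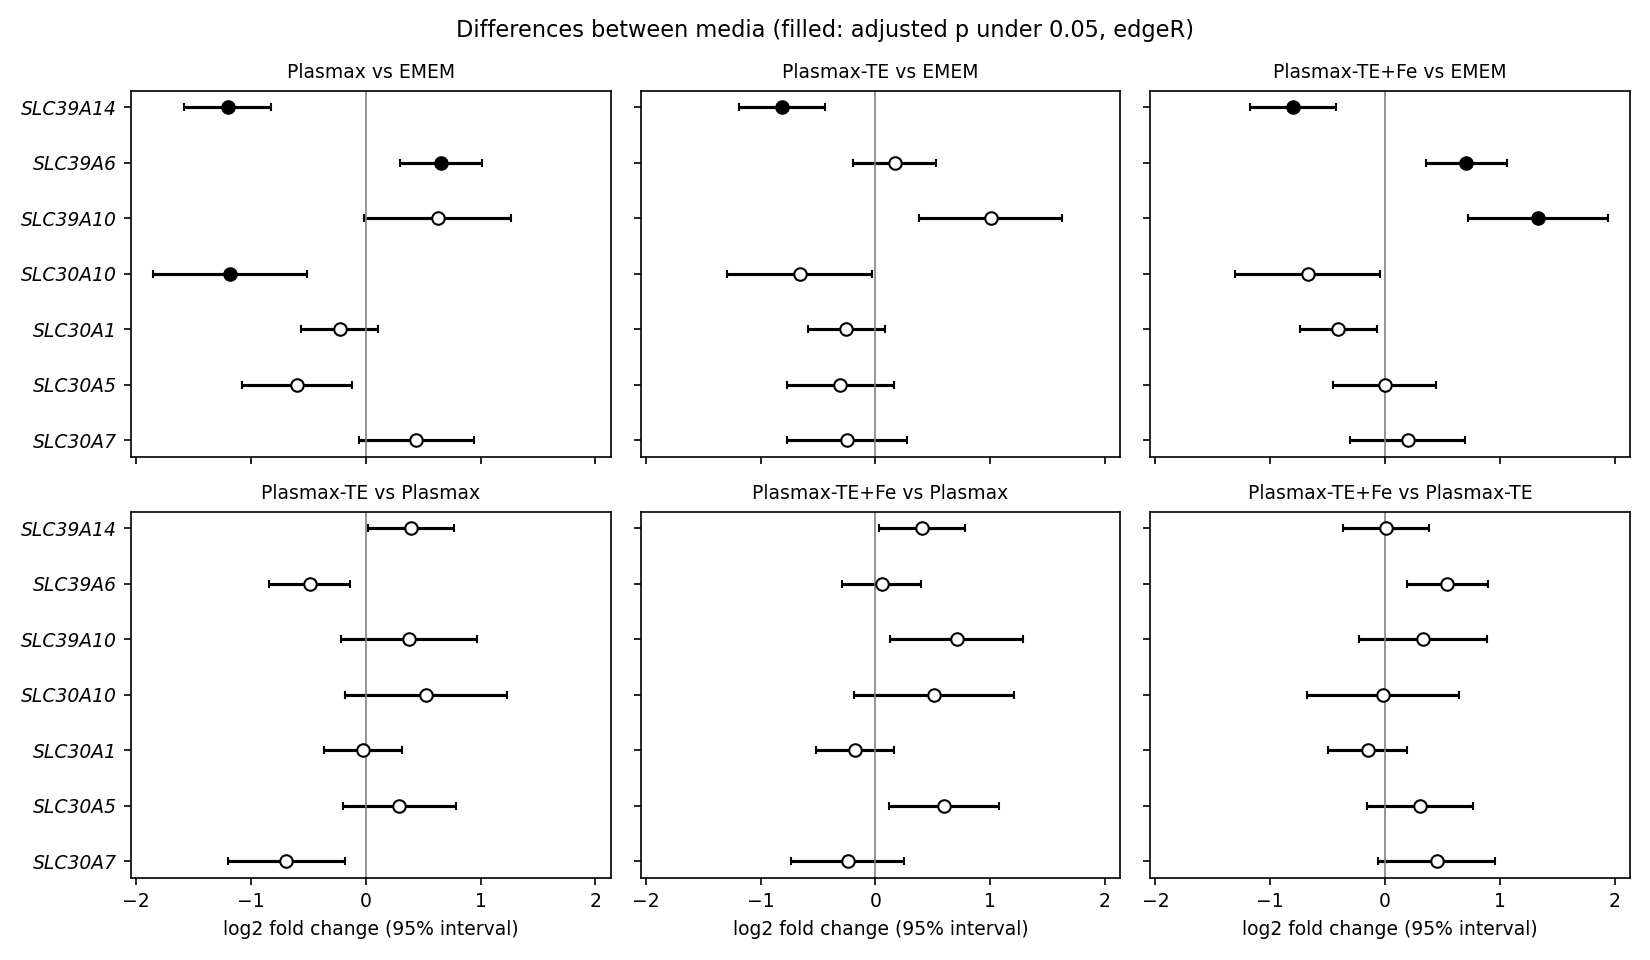
Log2 fold change of each measured transporter in the 6 comparisons of media, with 95% intervals that are not adjusted for the number of genes. Filled points passed edgeR's test (adjusted p under 0.05), and all 7 filled points lie in the 3 comparisons with EMEM.

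Removal of the trace elements was called for 0 of the 7 transporters in edgeR's test, beside 11.2% of all genes, and for 0 by DESeq2 and by limma-voom. With the block for runs of library numbers 2 were called, SLC39A6 and SLC30A7, beside 1859 of the 10459 genes. At an unadjusted p under 0.05 there were 3: SLC39A14 (0.39 ± 0.18), SLC39A6 (-0.49 ± 0.17) and SLC30A7 (-0.69 ± 0.24). The share of all genes at that unadjusted threshold was not taken, here or for the lists below. Such counts therefore cannot be set against the shares given, which are for adjusted p. Return of iron called 0 of 7 by each of the 3 tools, beside 0.258% of all genes in edgeR's test, and SLC39A6 alone had an unadjusted p under 0.05. Between Plasmax-TE+Fe and Plasmax 0 of 7 were called by each tool, beside 1.20% of all genes, and 3 had an unadjusted p under 0.05: SLC39A14 (0.40 ± 0.18), SLC39A10 (0.71 ± 0.28) and SLC30A5 (0.59 ± 0.23). With the block 1 was called in this last comparison, SLC39A10, beside 372 of the 10459 genes. Libraries did not overlap for 3 of the 7 on removal, beside 30.5% of all genes, for 1 on return of iron, beside 13.2%, and for 1 between Plasmax-TE+Fe and Plasmax, beside 18.1%. The median of the members was 0.29, 0.30 and 0.40 in these comparisons, and that of all genes 0.02, 0.00 and 0.01.

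The transporters can be set against the zinc-sensing and zinc-storing genes of the same libraries, of which 7 of 9 listed were tested: MTF1 itself and 6 metallothioneins. Upon removal of the trace elements all 6 metallothioneins fell, beside 11.2% of all genes called, with a list median of -1.47, and MTF1 differed by -0.17 ± 0.28 (adjusted p = 0.75, edgeR). MT2A went from 4606, 5772 and 5019.6 CPM in Plasmax to 638, 1308 and 1215 CPM in Plasmax-TE, a fall by 2.28 ± 0.24 (adjusted p = 7.2e-06, edgeR), while SLC30A1 averaged 61.6 and 60.1 CPM. The 95% interval of SLC30A1 reached down to -0.37, and the smallest fall among the metallothioneins was that of MT1A, by 1.23 ± 0.22. The difference between these changes was not tested. From EMEM to Plasmax MT2A rose while MT1F and MT1G fell, 3 of 7 beside 21.4% of all genes. The call of MT1G was lost without EMEM replicate 3, Plasmax replicate 1 or Plasmax replicate 2 (adjusted p = 0.13, 0.080 and 0.12, edgeR). Against EMEM 5 of the 7 genes fell in Plasmax-TE (beside 4.81%) and 4 in Plasmax-TE+Fe (beside 9.65%). In Plasmax-TE the call of MT1A was lost in 8 of 22 alternatives, at adjusted p from 0.051 in limma-voom, which called 4 genes, to 0.18 without EMEM replicate 2. Among these were also library size alone and the fits without EMEM replicate 3, Plasmax replicate 2 or any one Plasmax-TE library. Return of iron called 0 of the 7 genes in edgeR's test, beside 0.258% of all genes, and 3 of the 7 had an unadjusted p under 0.05. DESeq2 called 1 (MT1F), limma-voom 0 and the block for runs 2 (MT1F and MT2A), beside 71, 20 and 152 genes over all genes. In Plasmax-TE+Fe against Plasmax 5 of the 7 fell, beside 1.20% of all genes, with a list median of -1.60. These were MT1E, MT1F, MT1G, MT1X and MT2A, each called in all 22 alternatives. MT1A (adjusted p = 0.27) and MTF1 (adjusted p = 0.98) did not pass in edgeR's test.

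**Figure D4:**
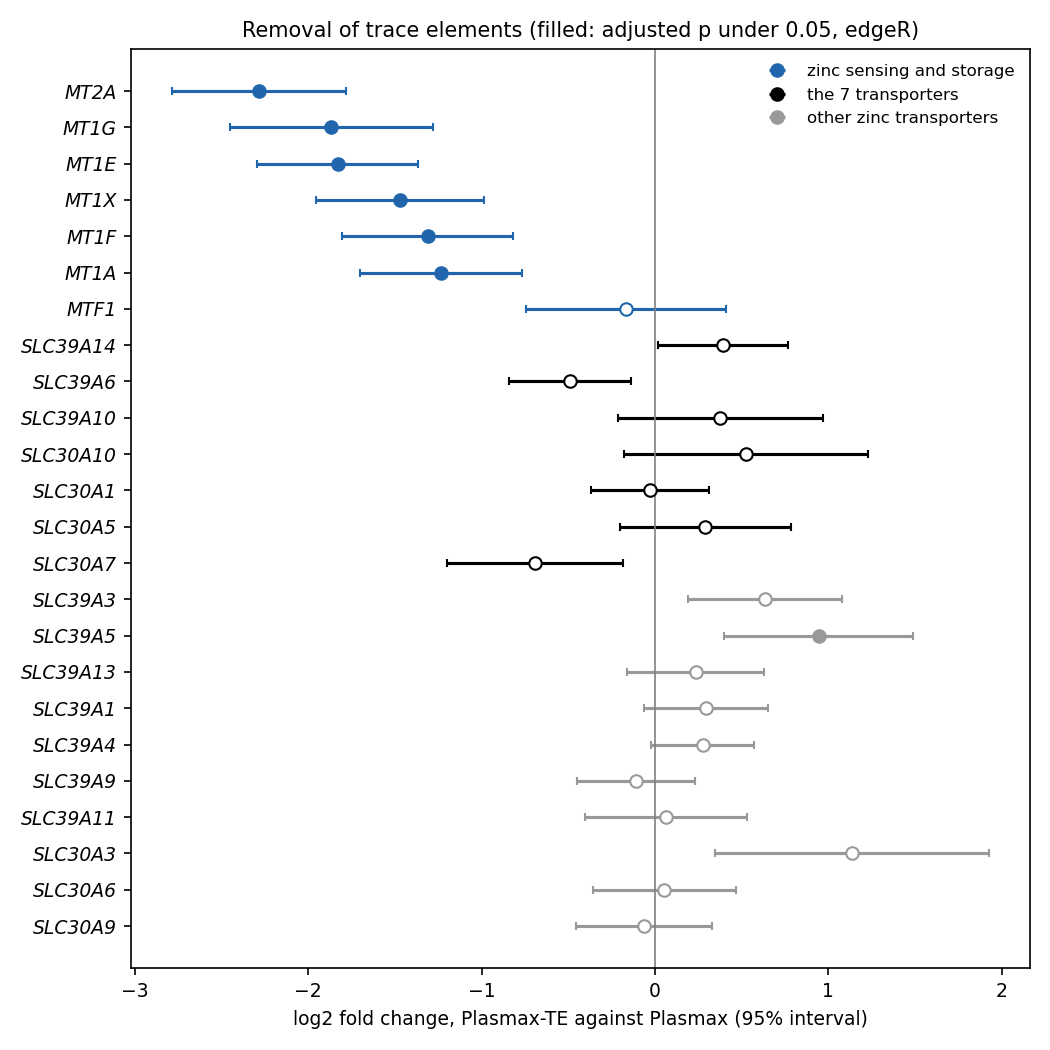
Log2 fold change in Plasmax-TE against Plasmax, with 95% intervals not adjusted for the number of genes, for 7 zinc-sensing and zinc-storing genes, the 7 transporters and 10 further zinc transporters. Filled points passed edgeR's test (adjusted p under 0.05): the 6 metallothioneins lie between -2.28 and -1.23, SLC39A5 is filled at 0.94, and no transporter of the set is filled.

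Of 16 further SLC30 and SLC39 genes 10 were tested, and 3 differed among the 4 media, beside 18.0% of all genes: SLC39A5, SLC39A13 and SLC39A3. SLC39A5 (ZIP5), an importer of liver, pancreas and gut epithelium, averaged 54.8 ± 11.3 CPM in EMEM, 21.6 ± 5.94 in Plasmax, 42.0 ± 14.2 in Plasmax-TE and 20.2 ± 3.73 in Plasmax-TE+Fe (SD, n = 3 each). It fell from EMEM to Plasmax by 1.32 ± 0.26 (adjusted p = 0.0010) and rose on removal of the trace elements by 0.94 ± 0.26 (adjusted p = 0.025, edgeR). The rise was lost without Plasmax replicate 1 or 2 or Plasmax-TE replicate 2 or 3, at adjusted p between 0.062 and 0.13. With iron restored SLC39A5 differed by -1.05 ± 0.26 (adjusted p = 0.094 in edgeR, 0.043 in DESeq2, 0.15 in limma-voom and 0.021 with the block for runs). It also passed without Plasmax-TE replicate 1 (adjusted p = 0.039) and with both libraries that stood apart left out (adjusted p = 0.038, edgeR).

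SLC39A13 (ZIP13), an importer of intracellular vesicles, averaged 53.4 ± 5.84 CPM in EMEM against 27.1 ± 2.95, 32.2 ± 5.06 and 35.5 ± 1.66 CPM in Plasmax, Plasmax-TE and Plasmax-TE+Fe. Its fall in Plasmax was 0.97 ± 0.18 (adjusted p = 0.00075, edgeR). SLC39A3 averaged 44.2 and 40.1 CPM in EMEM and Plasmax and 62.9 and 65.4 CPM in Plasmax-TE and Plasmax-TE+Fe. In edgeR's test of all 12 libraries without a block no pair of media passed. With the block for runs SLC39A3 was higher in Plasmax-TE than in Plasmax (adjusted p = 0.0098), and in Plasmax-TE+Fe than in Plasmax and in EMEM (both adjusted p = 0.020, edgeR). The first of these also passed without Plasmax replicate 3, Plasmax-TE replicate 2 or Plasmax-TE+Fe replicate 2 (adjusted p = 0.022, 0.042 and 0.037). Its call over the 4 media was lost in 8 of 21 alternatives, all of them with libraries left out, at adjusted p from 0.050 to 0.12. These were the fits without replicate 1 or 2 of EMEM, Plasmax or Plasmax-TE+Fe, without Plasmax-TE replicate 3, and without both libraries that stood apart.

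Against EMEM SLC39A13 fell in Plasmax-TE as well, a call lost without EMEM replicate 1, EMEM replicate 3 or Plasmax-TE replicate 2 (adjusted p = 0.068, 0.096 and 0.12, edgeR). In Plasmax-TE+Fe SLC39A5 and SLC39A13 fell against EMEM. There the call of SLC39A13 was lost in 9 of 22 alternatives: DESeq2 (adjusted p = 0.062), library size alone (0.067), the replicate block (0.053), and without EMEM replicate 1 or 3, Plasmax replicate 2 or any one Plasmax-TE+Fe library (0.051 to 0.15). Over the 10 genes 2 fell and 0 rose from EMEM to Plasmax, beside 21.4% of all genes called, and 1 rose and 0 fell on removal of the trace elements, beside 11.2%. Of the 10, 0 were called on return of iron in edgeR's test (1 at an unadjusted p under 0.05, 1 by DESeq2, SLC39A5, and 0 by limma-voom), beside 0.258%.

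All 8 genes listed for other manganese handling were tested. From EMEM to Plasmax 2 fell, ARG1 and TFRC, and 6 did not pass, beside 21.4% of all genes called, with a list median of -0.25. ARG1, the manganese-dependent arginase of the urea cycle, had 10, 21 and 22 counts in the EMEM libraries and 0 in all 3 of Plasmax. Against a floor of 3 counts over that medium it was at least 16.8-fold lower, and the list median is the same with ARG1 at this bound. SOD2, the manganese superoxide dismutase of mitochondria, rose from 135 ± 11.6 CPM in EMEM to 205 ± 24.3 in Plasmax-TE and 254 ± 18.0 in Plasmax-TE+Fe (SD, n = 3 each). These rises were 0.60 ± 0.15 and 0.91 ± 0.15 (adjusted p = 0.025 and 0.00055, edgeR). The first was lost without EMEM replicate 1, 2 or 3 (adjusted p = 0.12, 0.094 and 0.056) and without Plasmax-TE replicate 2 or 3 (adjusted p = 0.14 and 0.059). In Plasmax SOD2 averaged 178 ± 28.7 CPM and missed the threshold against EMEM (adjusted p = 0.072, edgeR), passing in 4 of 22 alternatives. Against Plasmax neither Plasmax-TE nor Plasmax-TE+Fe passed (adjusted p = 0.41 and 0.11, edgeR). With the block for runs the second did (adjusted p = 0.039). TFRC, the transferrin receptor, fell by 0.88 ± 0.23 in Plasmax against EMEM (adjusted p = 0.0087, edgeR). In Plasmax-TE and in Plasmax-TE+Fe against EMEM SOD2 rose and TFRC and ARG1 fell, 3 of the 8 in each, beside 4.81% and 9.65% of all genes. On removal of the trace elements 0 of the 8 were called (2 at an unadjusted p under 0.05), and on return of iron 0 (1 at an unadjusted p under 0.05), in edgeR's test and in DESeq2. The share of all genes called in edgeR's test was 11.2% and 0.258%. By limma-voom and with the block for runs 1 was called on removal (ARG1, at 3, 3 and 1 counts in Plasmax-TE) and 0 on return of iron. On removal these fits called 1126 and 1859 genes over all genes.

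Genes with the most similar profile over the 12 libraries were sought among 9933 others with a mean of at least 5 CPM, by Pearson's r of log2 CPM. For SLC30A1 the closest 5 were ALDH18A1 (r = 0.87), MRPL49 (0.84), DAAM1 (0.83), DAP (0.82) and MYH10 (0.81). All 5 had their highest mean in EMEM and their lowest in Plasmax-TE+Fe, ALDH18A1 going from 121 to 72.6 CPM. For SLC30A10 they were NAB2 (r = 0.91), ESRRA (0.89), RRNAD1 (0.88), WDR74 (0.88) and YIPF4 (0.88). Each of these had its highest mean in EMEM and its lowest in Plasmax, NAB2 going from 26.6 to 14.1 CPM. The values were picked as the highest among many genes in libraries that share medium and depth, and describe these libraries alone.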

How the data were processed

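The table deposited by the authors holds whole-number read counts per gene for 12 libraries of HepG2 cells. Per the submitters' processing notes the tools were STAR 2.7.5b, featureCounts 1.6.3, cutadapt 1.16, FastQC 0.72 and limma 3.40.6, listed without role or order, and the build was hg19 (GRCh37). The annotation behind the counting is not given in the sources. Libraries were made with the QuantSeq 3′ kit, per the labels' protocols. Every gene in it reaches at least 4.04 CPM in 3 or more libraries, and whether low genes were removed before deposit is not stated. Of 10994 entries, 54 duplicates were dropped. No pair of libraries was identical.

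Counts were fitted with edgeR 4.0.16 (R 4.3.3), with TMM scaling, filterByExpr (minimum count 10, minimum total 15, leaving out 481 genes) and 1 model of the 4 media with 8 residual degrees of freedom. The quasi-likelihood test was adjusted by Benjamini-Hochberg over 10459 genes, with a threshold of 0.05. Standard errors are the log2 fold change divided by the root of F, and 95% intervals are per gene. The pipeline was tested on simulated data. Correlations used log2 CPM with a prior count of 2. An exact permutation test of 3 against 3 libraries cannot go below p = 0.1 and was not used.

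The text names the 8 transporters by symbol. Of 3 further lists (other zinc transporters, zinc sensing and storage, manganese handling) it names genes that passed the test of 4 media or stand beside a transporter of like function, and for SLC30A1 and SLC30A10 the 5 genes most alike in pattern. Members and lists were chosen with earlier results of these data known. Promoter windows are RefSeq's on GRCh38.p14, another build than that of the counts. The coordinates printed for SLC30A1, SLC39A6 and MT2A are those of the windows on GRCh38.p14 and not of the build used for counting.

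Alternatives were DESeq2 1.42.0, limma-voom (limma 3.58.1), RLE factors, library size alone, other low-count filters, only the 6 libraries compared, blocks for the replicate number or for runs of library numbers, each library left out, and, added after seeing the data, both libraries that stood apart left out. Library names carry the numbers 85 to 96, in 3 runs of 4 that each hold 1 library per medium. The labels do not say what a run is. The replicate numbers of the labels equal the runs in EMEM, Plasmax and Plasmax-TE. In Plasmax-TE+Fe they do not: replicates 1, 2 and 3 lie in runs 3, 1 and 2.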

Additional observations from a re-analysis of the deposited data

How the results depend on the processing

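Over 49 values (7 transporters in 6 comparisons and in the test of 4 media) and 1071 recomputed values, 1021 kept direction and side of the threshold, 9 lost a call, 22 gained one and 19 changed sign, none of the 19 past the threshold. The fall of SLC39A14 from EMEM to Plasmax and the rise of SLC39A10 from EMEM to Plasmax-TE+Fe were called in all 22 alternatives. The cause of the changes listed here was not tested.

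For Plasmax-TE against Plasmax, 0 transporters were called, 2 with the block for runs of library numbers and 1 with both libraries that stood apart left out. For Plasmax-TE+Fe against Plasmax the first of these gave 1. For Plasmax-TE against EMEM, DESeq2, the block for runs and the fit of only the 6 libraries each gave 2 against 1. With single libraries left out, the number called ran from 1 to 3 for Plasmax against EMEM, 0 to 2 for Plasmax-TE against Plasmax, 0 to 1 for Plasmax-TE+Fe against Plasmax-TE, 0 to 0 for Plasmax-TE+Fe against Plasmax, 0 to 2 for Plasmax-TE against EMEM, 1 to 4 for Plasmax-TE+Fe against EMEM and 2 to 4 for the 4 media.

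With both libraries that stood apart left out, the log2 fold change changed sign for SLC30A1 in Plasmax-TE against Plasmax (0.037), SLC30A10 in Plasmax-TE+Fe against Plasmax-TE (0.10) and SLC30A5 in Plasmax-TE+Fe against EMEM (0.10). The last was 0.044 with library size alone and 0.0040 with a mean of at least 5 CPM. With single libraries left out it ran from -0.065 to 0.10, that of SLC30A1 in Plasmax-TE against Plasmax from -0.12 to 0.036 and that of SLC30A10 in Plasmax-TE+Fe against Plasmax-TE from -0.34 to 0.21. In the same comparison SLC39A14 ran from -0.14 to 0.16, and in Plasmax-TE+Fe against Plasmax SLC30A7 ran from -0.38 to 0.023 and SLC39A6 from -0.11 to 0.20.

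The number of all genes called was 2233 for Plasmax against EMEM (1489 without Plasmax replicate 2 to 2998 with both libraries left out) and 1176 for Plasmax-TE against Plasmax (477 without Plasmax replicate 2 to 1859 with the block for runs). It was 27 for Plasmax-TE+Fe against Plasmax-TE (0 without Plasmax-TE replicate 2 to 229 without Plasmax-TE+Fe replicate 2) and 126 for Plasmax-TE+Fe against Plasmax (31 without Plasmax replicate 2 to 372 with the block). It was 503 for Plasmax-TE against EMEM (259 without EMEM replicate 3 to 829 with the block), 1009 for Plasmax-TE+Fe against EMEM (606 without EMEM replicate 3 to 1569 with the block) and 1879 for the 4 media (1275 without Plasmax replicate 2 to 2835 with the block).

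With the replicate number of the labels as a block, these counts were 2079, 1024, 19, 105, 440, 926 and 1662 in the same order, and the number of transporters called stayed within 1.5 times. Deviations of the 18 same-numbered pairs correlated from -0.43 to 0.17, and 4 of 12 libraries correlated best with their own number, against 12 of 12 for the runs (0.03 to 0.53). Replicate number and run differ in Plasmax-TE+Fe alone, and every same-numbered pair with a negative correlation held a library of that medium. SLC30A5 (20 to 55 counts per library) and SLC30A10 (21 to 66) are limited by depth: at their mean, counting error alone is 16.1% and 16.4% of the level.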
